A study of Homo sapiens with 6 samples.

Results

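Aminoacyl-tRNA synthetases are the enzymes that load each tRNA with its amino acid before protein synthesis, and 35 genes encoding them were examined in human oral keratinocytes treated with cannabidiol (CBD) or with vehicle. The members were taken by symbol from a fixed list of 19 cytosolic and 16 mitochondrial enzymes, and all 35 were found among the 58735 genes of the table, 17 of them under an older symbol such as AARS for AARS1. The cells were HOK-16B, an immortalized line of oral keratinocytes, and each group had 3 libraries. The CBD group received cannabidiol, a non-intoxicating cannabinoid of the hemp plant, and the other group received the vehicle alone. Per the series' design text, both groups met an inflammatory stimulus after the pretreatment, so the stimulus was shared by all 6 libraries. The labels name neither the stimulus nor a dose or time, and no unstimulated group was analysed here. The cell line tag gives HOK-16B for every sample, whereas a free-text field numbers the line upward to HOK-21B. Whether the replicates came from independent cultures is not in the labels, and the tests therefore gauge variation among these libraries, part or all of which could be technical.

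Each synthetase recognizes its own amino acid and tRNA, and cells keep separate, nucleus-encoded sets for the cytosol and for mitochondria. In the cytosol several of the enzymes are held together in the multi-tRNA synthetase complex by the scaffold proteins AIMP1, AIMP2 and EEF1E1. The transcription factor ATF4, made when amino acids are short or the endoplasmic reticulum is stressed, activates many cytosolic synthetase genes through C/EBP-ATF response elements. WARS1, the tryptophanyl enzyme, is in addition a classical interferon-inducible gene.

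The response element was sought as TGATGNAA, or TTNCATCA on the opposite strand, in windows from 250 bases before to 50 bases after each RefSeq start (GRCh38.p14). It was present in a window of 7 of the 16 cytosolic genes with an entry (43.8%) and of 1 of the 14 mitochondrial genes (7.14%), against 225 of 9141 tested genes with an entry (2.46%). LARS1, VARS1, YARS1, AARS2 and VARS2 had no entry. The matched sites are shown because all but that of YARS2 belong to cytosolic genes, the set in which most differences lay below vehicle. Each stretch of RefSeq sequence reads 5′ to 3′ on the gene's strand, with the 8 letters of the motif in capitals.
AARS1 (chr16:70289675-70289704, minus strand): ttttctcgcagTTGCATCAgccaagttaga
CARS1 (chr11:3057407-3057436, minus strand): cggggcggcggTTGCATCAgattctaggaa
GARS1 (chr7:30594834-30594863, plus strand): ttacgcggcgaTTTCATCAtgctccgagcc
IARS1 (chr9:92293692-92293721, minus strand): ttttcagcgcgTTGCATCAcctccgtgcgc
MARS1 (chr12:57488053-57488082, plus strand): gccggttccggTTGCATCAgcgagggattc
NARS1 (chr18:57621804-57621833, minus strand): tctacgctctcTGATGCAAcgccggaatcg
TARS1 (chr5:33440956-33440985, plus strand): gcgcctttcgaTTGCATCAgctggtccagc
YARS2 (chr12:32756076-32756105, minus strand): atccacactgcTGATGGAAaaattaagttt
The motif began within 33 bases of the start in 6 of the 7 cytosolic genes, and 187 bases before it in AARS1. The YARS2 match lay 197 bases before the start. These are matches of letters, and the files hold no measurement of binding at them.

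Values were FPKM, fragments scaled for gene length and for library size, and differences are CBD minus vehicle on the log2(FPKM + 1) scale, which understates differences of genes with low FPKM. A gene was tested where its mean FPKM over all libraries was at least 1, which held for 12517 genes and for 34 of the 35 synthetases. The libraries held 19010494 to 22158614 fragments in the CBD group and 18213784 to 21200871 in the vehicle group. Of all tested genes, limma called 32 higher with CBD (0.256%) and 12 lower (0.0959%) at an adjusted p under 0.05. These counts depended on single libraries. Leaving out vehicle replicate 2 gave 1267 higher and 1084 lower, leaving out vehicle replicate 1 gave 59 and 22, leaving out CBD replicate 3 gave 1 and 0, and leaving out any other library gave none. Vehicle replicate 1 stood apart from the other libraries, at -25.1 on the first principal component, against 10.3 to 12.7 in CBD libraries and -9.36 to 0.739 in the other vehicle libraries. The mean GC content per fragment was 50.7% to 50.8% in CBD libraries and 49.6% to 50.3% in vehicle libraries. All 15 keratinocyte markers were above the level tested, with summed levels of 13073 to 13668 FPKM in CBD libraries and 10714 to 12538 FPKM in vehicle libraries. Of 28 markers of fibroblasts, leukocytes, endothelium and melanocytes, 4 were above that level, namely COL1A1, CD14, CSF1R and PMEL, while PDGFRA, CD3E and TYR were at 0 reads in every library. The fibroblast list, almost all of it COL1A1, summed to 8.95 to 8.99 FPKM in CBD libraries and 6.94 to 7.70 FPKM in vehicle libraries. The part of these markers in the results below was not tested.

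The cytosolic synthetases lay mostly below vehicle in CBD-treated cells, by modest amounts. Of the 19 genes, 16 had a negative difference, against 52.6% of all tested genes, and 3 a positive one, against 47.4%. The median difference was -0.18 (range -0.34 to 0.12), against -0.01 over all tested genes. In 12 of the 19 every CBD library lay below every vehicle library, an arrangement found in 21.9% of tested genes. In 2 of the 19, AARS1 and QARS1, every CBD library lay above, as in 18.7% of tested genes. None of the 19 passed limma's adjusted threshold, while 11 were lower at an unadjusted p under 0.05, against 16.0% of tested genes, and none was higher, against 15.4%. When limma-voom was run on the fragment counts recovered from the FPKM, in which 100% of values were whole at a tolerance of 0.01, 909 genes were called higher (7.26%) and 836 lower (6.68%), and 9 of the 19 cytosolic synthetases were among those called lower. None of the 19 was called higher. With limma on FPKM and without vehicle replicate 2, 11 of the 19 passed the adjusted threshold, all lower, against 1084 of the 12517 tested genes. Without any other single library none of the 19 did. In these bulk libraries, fewer cells of a type and less RNA per cell cannot be told apart.

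Summed over all 19 genes, cytosolic synthetase levels were 473, 467 and 462 FPKM in CBD libraries and 528, 499 and 527 FPKM in vehicle libraries, or 467 ± 5.61 FPKM with CBD and 518 ± 16.5 FPKM with vehicle (SD, n = 3 each). The highest CBD sum was thus under the lowest vehicle sum. Vehicle replicate 1 gave the highest level of 10 of the 19 genes and CBD replicate 3 the lowest of 9.

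**Figure D1:**
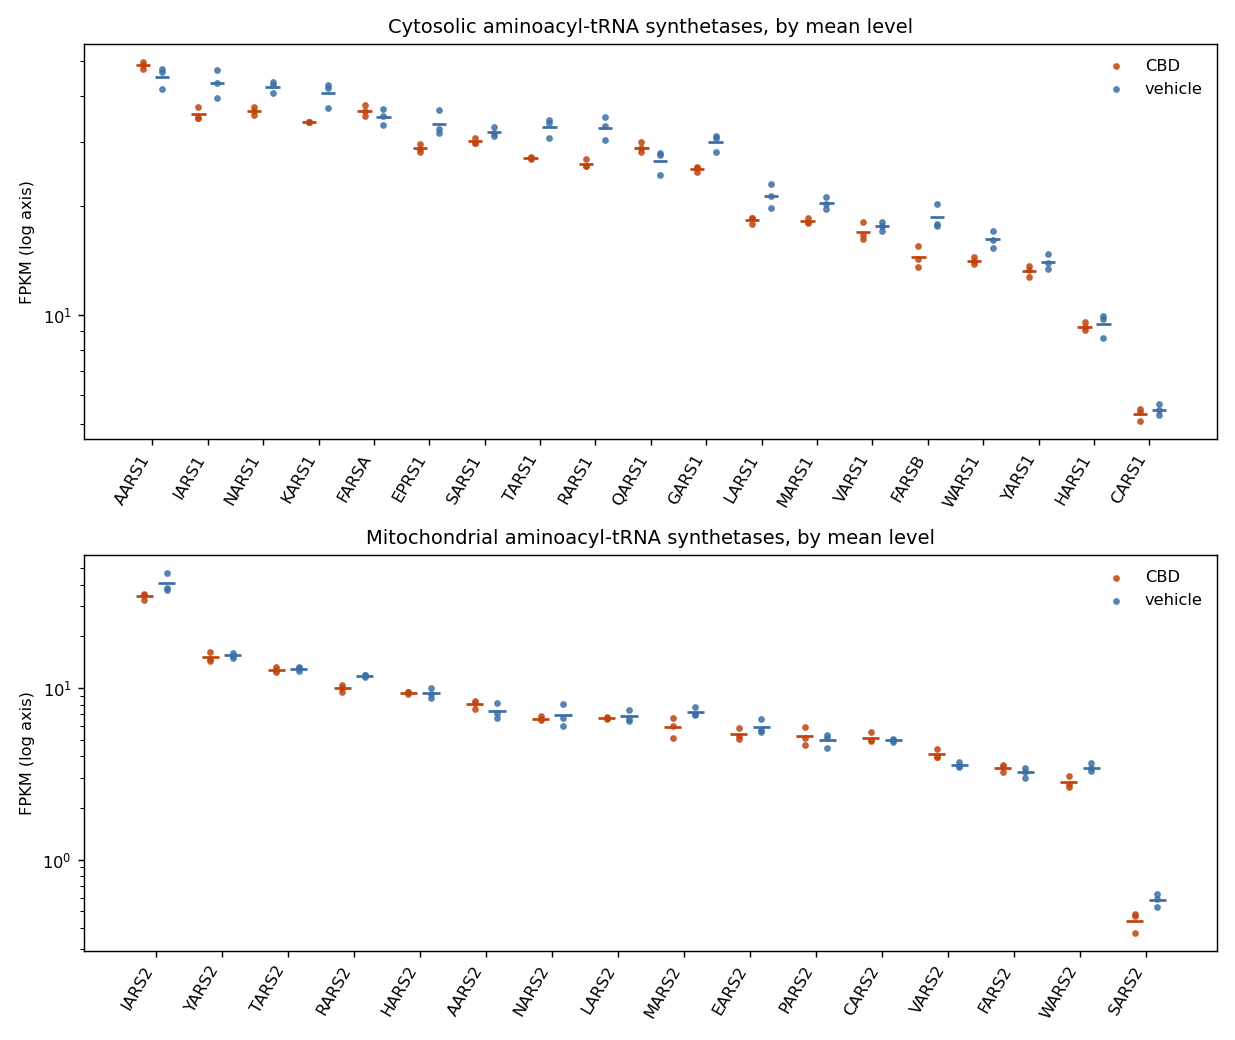
Level of each cytosolic and mitochondrial synthetase in every library, as FPKM on a log axis, with a point per library, CBD left of vehicle, and a short line at each mean. AARS1 is highest and CARS1 lowest among cytosolic genes, and IARS2 is highest and SARS2 lowest among mitochondrial genes. Points of the 2 groups lie close together beside the spread between genes.

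TARS1, the threonyl enzyme (chr5:33440696-33469539, plus strand, GRCh38 with GENCODE 29), had the smallest p of any synthetase. It measured 27.1, 27.2 and 27.0 FPKM in CBD libraries and 34.5, 30.8 and 33.8 FPKM in vehicle libraries. The CBD libraries were nearly identical and all lay below the vehicle libraries, with a difference of -0.28 ± 0.05 (SE; 95% interval -0.40 to -0.15; limma adjusted p 0.0592). Over the alternatives its adjusted p ran between 0.0167 and 0.209. An exact permutation test of any single gene cannot give less than 0.1 with 3 libraries against 3, which is what each gene without overlap reached.

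The multi-tRNA synthetase complex contains 7 of the 19 gene products, and 6 of these 7 had all CBD libraries below all vehicle libraries, against 21.9% of tested genes. RARS1, the arginyl enzyme (chr5:168486445-168519299, plus strand), measured 25.6, 26.9 and 25.7 FPKM in CBD libraries and 35.1, 30.2 and 33.1 FPKM in vehicle libraries. The difference was -0.32 ± 0.06 (SE; limma adjusted p 0.0597), and the highest CBD library lay below the lowest vehicle library. KARS1, the lysyl enzyme, whose gene also yields the mitochondrial form (chr16:75627474-75648643, minus strand), measured 34.1, 34.1 and 33.98 FPKM in CBD libraries and 43.1, 37.2 and 42.3 FPKM in vehicle libraries. Its CBD libraries agreed closely, vehicle replicate 2 was the lowest of the vehicle libraries, and the difference was -0.25 ± 0.06 (limma adjusted p 0.0728). IARS1, the isoleucyl enzyme, averaged 35.7 ± 1.37 FPKM with CBD and 43.5 ± 3.95 FPKM with vehicle, a difference of -0.27 ± 0.07 (limma adjusted p 0.0778). EPRS1, which charges both glutamate and proline, averaged 28.8 ± 0.763 FPKM with CBD and 33.6 ± 2.68 FPKM with vehicle. LARS1, the leucyl enzyme and a leucine sensor upstream of mTORC1, averaged 18.3 ± 0.382 FPKM with CBD and 21.3 ± 1.63 FPKM with vehicle. Both differed by -0.21. MARS1, the methionyl enzyme, averaged 18.1 ± 0.308 FPKM with CBD and 20.3 ± 0.761 FPKM with vehicle. Its exons overlap those of DDIT3, and strand use in counting was not given, so reads in the overlap cannot be assigned. QARS1, the glutaminyl enzyme, was the exception in the complex, with 28.9 ± 0.957 FPKM in CBD libraries and 26.6 ± 1.94 FPKM in vehicle libraries (SD, n = 3 each; limma adjusted p 0.237). The 7 genes summed to 190 ± 1.93 FPKM with CBD and 219 ± 12.6 FPKM with vehicle, and their median difference was -0.21.

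The scaffold genes of the complex lay on the same side. AIMP1 measured 14.6, 14.9 and 15.3 FPKM in CBD libraries and 20.7, 18.5 and 18.96 FPKM in vehicle libraries, a difference of -0.36 ± 0.06 (limma adjusted p 0.0538). No library of either group entered the range of the other. AIMP2 averaged 13.7 ± 1.03 FPKM with CBD and 16.0 ± 0.902 FPKM with vehicle (limma adjusted p 0.102), and 28.9% of its exon bases are shared with EIF2AK1. EEF1E1 averaged 1.91 ± 0.363 FPKM with CBD and 2.41 ± 0.272 FPKM with vehicle, a difference of -0.23, and its groups overlapped. With the trend on GC removed the differences were -0.19 in AIMP1, -0.24 in AIMP2 and -0.09 in EEF1E1.

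The other 12 cytosolic genes were more mixed, with 10 negative differences and a median of -0.08. Of these, 5 were lower at an unadjusted limma p under 0.05, against 16.0% of tested genes. Their median transcript GC content was 50.3%, against 43.2% for the 7 genes of the complex. With the trend on GC removed the medians were -0.14 for the 12 and -0.17 for the 7. At an unadjusted limma p, 7 of the 12 and 4 of the 7 were then lower, against 9.92% of tested genes. The difference between the 2 sets was not tested. GARS1, the glycyl enzyme of both cytosol and mitochondria (chr7:30594681-30634033, plus strand), measured 24.7, 25.4 and 25.5 FPKM in CBD libraries and 31.0, 28.0 and 30.6 FPKM in vehicle libraries, a difference of -0.24 ± 0.05 (limma adjusted p 0.0636). NARS1, the asparaginyl enzyme (chr18:57600656-57622213, minus strand), measured 37.4, 35.6 and 36.4 FPKM in CBD libraries and 43.8, 40.9 and 42.9 FPKM in vehicle libraries, a difference of -0.22 ± 0.05 (limma adjusted p 0.0636). In both genes all CBD libraries lay below all vehicle libraries.

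WARS1 (chr14:100333788-100376805, minus strand) measured 13.8, 14.4 and 14.1 FPKM in CBD libraries and 16.0, 15.3 and 17.02 FPKM in vehicle libraries. The groups did not overlap, and the difference of -0.18 ± 0.05 (SE; 95% interval -0.31 to -0.06; limma adjusted p 0.0874) was itself the median of the 19 cytosolic genes. SARS1, the seryl enzyme, also had all CBD libraries below vehicle, at 30.1 ± 0.517 FPKM with CBD and 31.9 ± 0.884 FPKM with vehicle, a difference of -0.08. YARS1, the tyrosyl enzyme, averaged 13.2 ± 0.444 FPKM with CBD and 14.01 ± 0.649 FPKM with vehicle, with overlapping groups. VARS1, the valyl enzyme, likewise overlapped, at 16.9 ± 0.964 FPKM with CBD and 17.5 ± 0.494 FPKM with vehicle.

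The highest and the lowest cytosolic gene were both outside the trend. AARS1, the alanyl enzyme (chr16:70252295-70289543, minus strand), measured 48.7, 49.8 and 47.6 FPKM in CBD libraries and 42.0, 46.7 and 47.5 FPKM in vehicle libraries. The gap between CBD replicate 3 and vehicle replicate 3 was thin, and the difference was 0.10 ± 0.06 (limma adjusted p 0.268). CARS1, the cysteinyl enzyme (chr11:3000922-3057613, minus strand), measured 5.40, 5.51 and 5.08 FPKM in CBD libraries and 5.31, 5.67 and 5.46 FPKM in vehicle libraries. Its groups overlapped, with a difference of -0.03 ± 0.05. HARS1, the histidyl enzyme, averaged 9.28 ± 0.259 FPKM with CBD and 9.43 ± 0.695 FPKM with vehicle, also with overlap.

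The phenylalanyl enzyme is built from a catalytic subunit, FARSA, and a second subunit, FARSB, and their values went apart. FARSB (chr2:222570536-222656337, minus strand) measured 15.5, 14.2 and 13.6 FPKM in CBD libraries and 20.2, 17.6 and 17.8 FPKM in vehicle libraries. The groups were clearly separate, and its difference of -0.34 ± 0.07 (SE; 95% interval -0.51 to -0.17; limma adjusted p 0.0619) was the most negative of all 34 tested synthetases. FARSA (chr19:12922479-12934037, minus strand) measured 37.8, 35.4 and 36.4 FPKM in CBD libraries and 33.4, 35.2 and 36.9 FPKM in vehicle libraries. Those groups overlapped, with a difference of 0.05 ± 0.05 (limma adjusted p 0.514). The FARSA to FARSB ratio was 2.44, 2.48 and 2.68 in CBD libraries and 1.65, 2.001 and 2.07 in vehicle libraries, or 2.53 ± 0.128 with CBD and 1.91 ± 0.225 with vehicle (SD, n = 3 each; exact two-sided permutation p 0.1). The GC content of the annotated transcripts is 61.6% in FARSA and 41.6% in FARSB, and with the trend on GC removed FARSA stood at -0.14 and FARSB at -0.21.

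**Figure D2:**
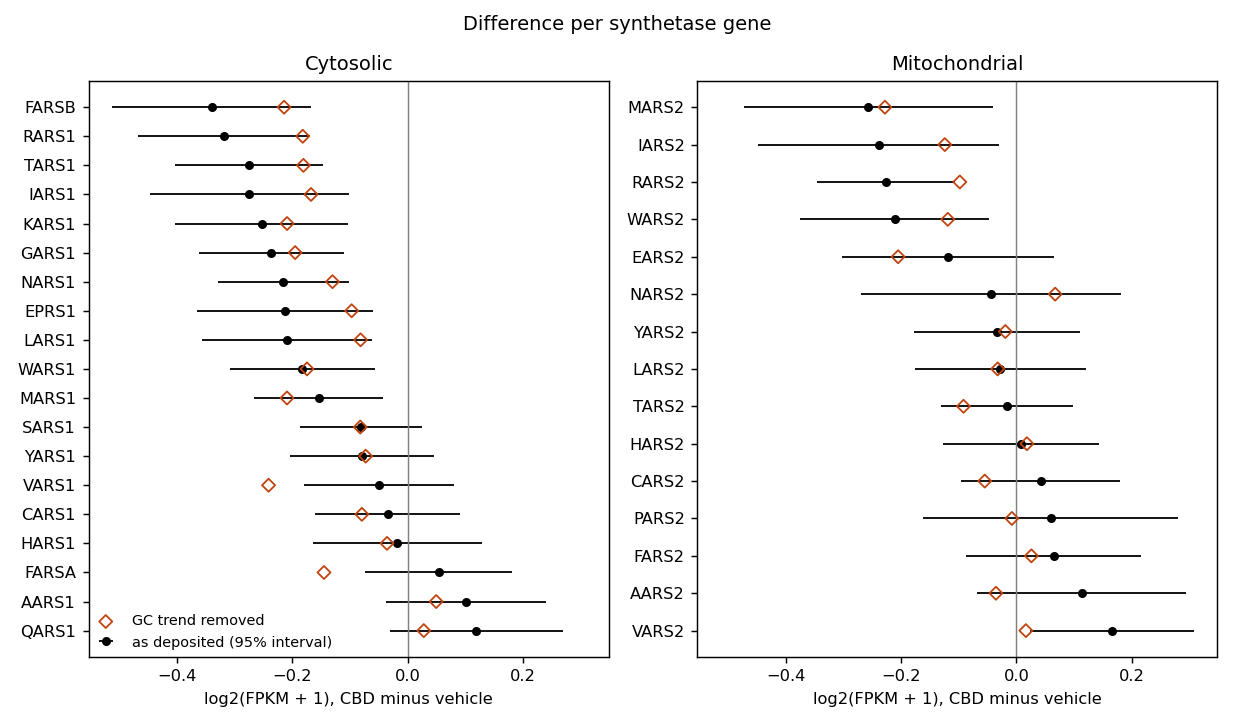
Difference of each tested synthetase between CBD and vehicle, in log2(FPKM + 1), as fitted to the deposited values (dots with the 95% interval) and with the trend on GC content removed (open diamonds, no interval). Among cytosolic genes 16 of 19 points lie below 0 as deposited and 17 with the trend removed, and mitochondrial points lie on both sides of 0.

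The 16 mitochondrial synthetases showed less of a common direction in the deposited values. Of the 15 tested, 9 had a negative difference, against 52.6% of all tested genes, and 6 a positive one, against 47.4%. The median was -0.03 (range -0.26 to 0.17). With the trend on GC removed 11 were negative, against 51.8% of tested genes, and 4 positive, against 48.2%, with a median of -0.04. Without vehicle replicate 1 in addition, 12 were negative and 3 positive, with a median of -0.05. None passed limma's adjusted threshold or that of limma-voom on recovered fragments. At an unadjusted limma p under 0.05, 4 were lower and 1 was higher, against 16.0% and 15.4% of tested genes. The count of 4 was 2 without CBD replicate 1, 1 without CBD replicate 2 and 2 without CBD replicate 3, and without vehicle replicate 2 a single gene passed the adjusted threshold. The shares of all tested genes lower at an unadjusted p in the fits without a CBD library are not given here. The summed levels of the 16 genes were 137, 134 and 135 FPKM in CBD libraries and 150, 143 and 143 FPKM in vehicle libraries, again without overlap. These sums include IARS2, the gene of highest level, at 34.2 ± 1.34 FPKM with CBD and 40.7 ± 5.12 FPKM with vehicle. The sums therefore weigh that gene most. The difference between the cytosolic and the mitochondrial set was not tested.

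RARS2, the mitochondrial arginyl enzyme (chr6:87514378-87590003, minus strand), measured 9.95, 9.46 and 10.4 FPKM in CBD libraries and 11.6, 11.9 and 11.9 FPKM in vehicle libraries, a difference of -0.23 ± 0.05 (limma adjusted p 0.0636). It was the mitochondrial gene with the smallest p, and its groups did not overlap. IARS2, the isoleucyl enzyme and the mitochondrial gene of highest level (chr1:220094102-220148041, plus strand), measured 34.6, 32.7 and 35.3 FPKM in CBD libraries and 46.6, 37.3 and 38.2 FPKM in vehicle libraries. Vehicle replicate 1 was far above the other vehicle libraries, and the difference was -0.24 ± 0.09 (limma adjusted p 0.125), with a range of -0.30 to -0.14 when single libraries were left out. MARS2, the methionyl enzyme (chr2:197705369-197708387, plus strand), measured 6.66, 5.11 and 5.97 FPKM in CBD libraries and 6.92, 7.00 and 7.78 FPKM in vehicle libraries, a difference of -0.26 ± 0.09 (limma adjusted p 0.117). WARS2, the tryptophanyl enzyme (chr1:119031216-119140671, minus strand), measured 2.76, 2.66 and 3.09 FPKM in CBD libraries and 3.64, 3.41 and 3.26 FPKM in vehicle libraries, a difference of -0.21 ± 0.07 (limma adjusted p 0.104). CBD libraries of both genes lay below all vehicle libraries, though only narrowly in CBD replicate 1 of MARS2.

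VARS2, the valyl enzyme (chr6:30908242-30926459, plus strand), was the mitochondrial gene in which every CBD library lay above every vehicle library. It measured 3.97, 3.97 and 4.41 FPKM in CBD libraries and 3.50, 3.69 and 3.48 FPKM in vehicle libraries, a difference of 0.17 ± 0.06 (limma adjusted p 0.119). With the trend on GC removed the difference was 0.02, and 22.0% of its exon bases are shared with GTF2H4. EARS2, the glutamyl enzyme (chr16:23522014-23557731, minus strand), measured 5.83, 5.27 and 5.02 FPKM in CBD libraries and 6.55, 5.70 and 5.52 FPKM in vehicle libraries, with overlapping groups and a difference of -0.12 ± 0.08.

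SARS2, the seryl enzyme (chr19:38915266-38930896, minus strand), was the lowest of all 35 and below the level tested, at 0.467, 0.481 and 0.375 FPKM in CBD libraries and 0.528, 0.592 and 0.631 FPKM in vehicle libraries. These values rest on 25 to 36 fragments per CBD library and 39 to 42 per vehicle library, while every other synthetase had at least 236. Without the filter on low values its difference was -0.14 ± 0.08 (limma adjusted p 0.474). Of its exon bases, 46.2% also belong to the annotated gene AC011455.2, so its level is uncertain.

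The other 9 mitochondrial genes had overlapping groups and differences between -0.04 and 0.11. AARS2, the alanyl enzyme, averaged 8.01 ± 0.437 FPKM with CBD and 7.34 ± 0.747 FPKM with vehicle. TARS2, the threonyl enzyme, averaged 12.8 ± 0.482 FPKM with CBD and 12.9 ± 0.285 FPKM with vehicle. YARS2, the tyrosyl enzyme, averaged 15.1 ± 1.02 FPKM with CBD and 15.5 ± 0.587 FPKM with vehicle. The cysteinyl CARS2, phenylalanyl FARS2, histidyl HARS2, leucyl LARS2, asparaginyl NARS2 and prolyl PARS2 enzymes averaged between 3.41 and 9.37 FPKM with CBD and between 3.22 and 9.32 FPKM with vehicle. HARS2 shares 11.7% of its exon bases with HARS1, which starts 436 bases away and is read in the opposite direction.

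Cytosolic and mitochondrial enzymes for the same amino acid formed 17 pairs, among which EPRS1 and FARS2 recur. In 13 of the pairs the cytosolic gene was higher in all 6 libraries. The FARSA to FARS2 ratio, for example, was 10.7 ± 0.640 with CBD and 10.9 ± 0.211 with vehicle (SD, n = 3 each). The exceptions were YARS1 and YARS2, with a ratio of 0.876 ± 0.0453 in CBD libraries and 0.906 ± 0.00822 in vehicle libraries, and the near-equal pairs of HARS1 with HARS2, IARS1 with IARS2, and CARS1 with CARS2. The IARS1 to IARS2 ratio was 1.05 ± 0.0483 with CBD and 1.07 ± 0.0641 with vehicle, with overlapping groups. The ratio of TARS1 to TARS2 was 2.12 ± 0.0703 with CBD and 2.56 ± 0.2003 with vehicle, beside a TARS2 difference of -0.02. The transcript GC content is 44.1% in TARS1 and 54.3% in TARS2. With the trend on GC removed TARS1 stood at -0.18 and TARS2 at -0.09.

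**Figure D3:**
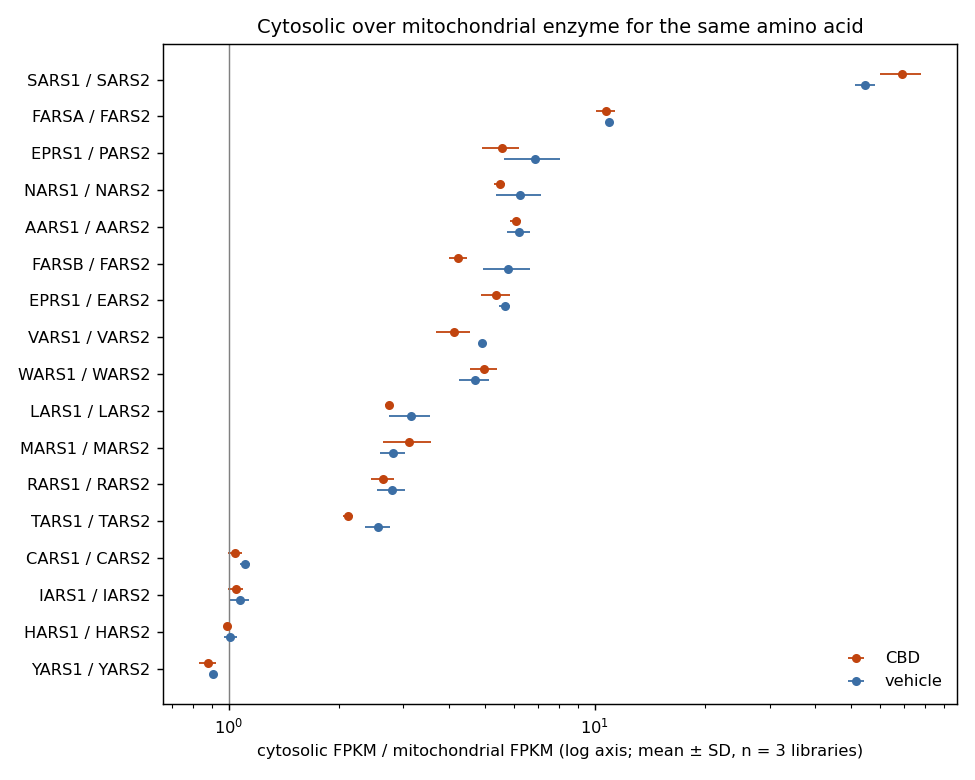
Ratio of the cytosolic to the mitochondrial gene for each of 17 pairs, on a log axis, as the mean of 3 libraries with SD bars, for CBD above and vehicle below. YARS1 with YARS2 lies under 1 in all 6 libraries, 13 pairs lie above 1 in all 6, and SARS1 with SARS2 reaches 79.3 in a single library, with SARS2 at a very low level.

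Across the structural classes, which differ in the fold of the catalytic domain, the cytosolic genes gave like medians. It was -0.17 for the 10 class I genes, 9 of them negative, and -0.22 for the 9 class II genes, 7 of them negative. EPRS1, which charges both glutamate and proline, was counted under class I only. Among mitochondrial genes the medians were -0.12 for 9 class I genes and 0.03 for 6 tested class II genes. The mitochondrial class I genes, IARS2 among them, summed to 89.2 ± 1.46 FPKM with CBD and 99.8 ± 5.10 FPKM with vehicle. All 7 mitochondrial class II genes summed to 45.9 ± 0.928 FPKM with CBD and 45.3 ± 1.64 FPKM with vehicle. The cytosolic genes with the response element in a window had a median difference of -0.22 (n = 7, range -0.28 to 0.10) and those without it -0.18 (n = 9, range -0.34 to 0.12), 2 ranges that cover each other almost fully.

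Differences between the groups followed GC content over the whole transcriptome and over the synthetases. Across the tested genes the Spearman correlation of difference and transcript GC content was 0.67, across genes that share the same libraries, and the median difference was -0.17 in the lowest and 0.24 in the highest of the equal bins of GC content. The same correlation was 0.85 over the 19 cytosolic and 0.79 over the 15 tested mitochondrial genes. The cytosolic genes with the most negative differences are of lower GC content, namely FARSB (41.6%), RARS1 (40.9%) and TARS1 (44.1%), while QARS1 (55.3%) and AARS1 (53.3%) lay above vehicle.

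All 9 cytosolic genes below the median GC content of tested genes, 48.9%, were lower at an unadjusted limma p under 0.05, with a median of -0.25, against 28.4% of all tested genes below that content. Of the 10 above it, 2 were lower (3.63% of such tested genes), MARS1 and WARS1, and 7 were negative, with a median of -0.04. With a smooth trend on GC content taken out of each library, 17 of the 19 cytosolic differences were negative, against 51.8% of tested genes, and 2 were positive, against 48.2%, with a median of -0.14. At an unadjusted p 11 were again lower, against 9.92% of tested genes, and none was higher, against 8.32%. Of these 11, 9 were also among the 11 lower as deposited. EPRS1 and LARS1 left that group, and FARSA and VARS1 entered it at -0.14 and -0.24. The 11 genes lower as deposited kept a median share of 0.630 of their difference (range 0.389 to 1.36). None passed the adjusted threshold with the trend removed, at which 0.0320% of tested genes were called lower and 0.0320% higher. Of the 4 mitochondrial genes lower as deposited, only MARS2 stayed past the unadjusted threshold, at -0.23. GC content and group move together in these libraries, and how much of each difference belongs to either was not tested.

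**Figure D4:**
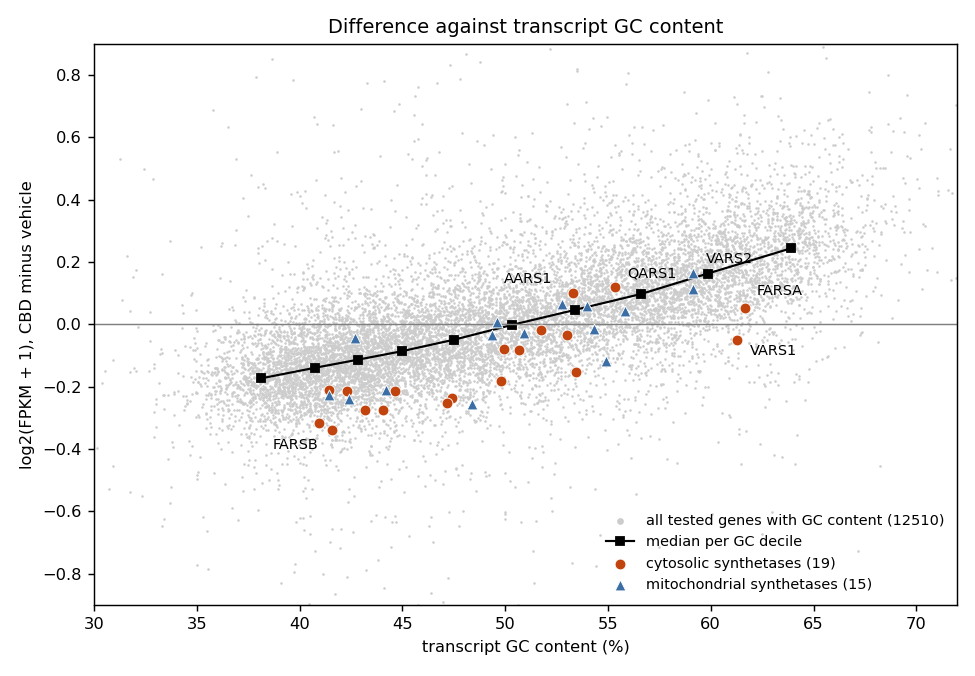
Difference between CBD and vehicle in log2(FPKM + 1) against transcript GC content in percent, for 12510 tested genes in grey, with the cytosolic and mitochondrial synthetases marked and the median of each equal bin of GC content joined by a line. The medians run from -0.17 in the lowest to 0.24 in the highest bin, and the synthetases follow the same slope, most cytosolic ones under the line. The axes leave out 83 genes.

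The other genes that serve tRNA were compared by list. Of 10 genes of tRNA export and maturation, 9 had negative differences, with a median of -0.22, and 6 were lower at an unadjusted limma p under 0.05, against 16.0% of tested genes. SSB, the La protein that binds new tRNA transcripts, averaged 17.6 ± 0.699 FPKM with CBD and 22.1 ± 1.27 FPKM with vehicle (limma adjusted p 0.0574). XPOT, the tRNA exportin, averaged 23.6 ± 0.369 FPKM with CBD and 29.2 ± 2.51 FPKM with vehicle (limma adjusted p 0.0636). RPP30, a subunit of RNase P, averaged 5.92 ± 0.175 FPKM with CBD and 7.14 ± 0.639 FPKM with vehicle. With the GC trend removed 9 of the 10 differences were negative, with a median of -0.13 and 4 at an unadjusted p under 0.05, against 9.92% of tested genes. The 4 genes that form or formylate charged mitochondrial tRNAs had a median of -0.10 and none past the unadjusted threshold. GATC, a subunit of the amidotransferase, averaged 4.93 FPKM with CBD and 5.50 FPKM with vehicle. Of its exon bases, 39.1% are shared with SRSF9, which averaged 22.2 FPKM over all libraries. The 4 tested genes of selenocysteine charging and editing were all negative, with a median of -0.08, and none passed. With the GC trend removed 3 of these 4 were positive, against 48.2% of tested genes, with a median of 0.04. The 4 genes that form or formylate charged mitochondrial tRNAs then had 2 positive and 2 negative differences, with a median of -0.02.

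The elongation factors bring charged tRNA to the ribosome and move it through. Of 4 tested cytosolic ones, 2 were positive at an unadjusted limma p under 0.05, against 15.4% of tested genes, and 2 were negative. With the GC trend removed none of the 4 passed the unadjusted threshold. EEF2, the translocase, averaged 521 ± 10.5 FPKM with CBD and 469.9 ± 2.43 FPKM with vehicle (limma adjusted p 0.0949), a difference of 0.15 that was 0.01 with the GC trend removed. EEF1D averaged 11.02 ± 0.599 FPKM with CBD and 8.24 ± 1.71 FPKM with vehicle. EEF1G was listed at 0 in all libraries, and 99.9% of its exon bases also belong to another annotated gene, AP002990.1. Of the 4 mitochondrial factors, 3 were negative and 1 positive, with a median of -0.12. At an unadjusted limma p under 0.05, 1 was lower, against 16.0% of tested genes, and 1 higher, against 15.4%. GFM1, a translocase, averaged 8.23 ± 0.443 FPKM with CBD and 10.1 ± 0.804 FPKM with vehicle. TUFM, which delivers the charged tRNA, averaged 104 ± 1.597 FPKM with CBD and 96.5 ± 2.96 FPKM with vehicle. GFM2, a ribosome recycling factor, differed by -0.12 and the remaining gene of the list by -0.13, neither past the unadjusted threshold. With the GC trend removed all 4 were negative, with a median of -0.07.

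The RNA of ATF4 itself was level, at 90.0 ± 1.40 FPKM with CBD and 89.5 ± 7.67 FPKM with vehicle (difference 0.01, limma adjusted p 0.925). ATF4 protein and its activity were not measured in these libraries. Of 25 tested genes of the ATF4 response and amino acid supply, 14 were positive and 11 negative, with a median of 0.01. At an unadjusted limma p under 0.05, 7 were higher, against 15.4% of tested genes, and 4 were lower, which is the share of 16.0% found over all tested genes. With the GC trend removed 9 were positive and 16 negative, with a median of -0.08. At an unadjusted p 5 were then higher, against 8.32% of tested genes, and 5 lower, against 9.92%. TRIB3, a feedback inhibitor in the ATF4 response, averaged 7.21 ± 0.145 FPKM with CBD and 9.41 ± 0.769 FPKM with vehicle (limma adjusted p 0.0574), a difference of -0.34 that was -0.54 with the GC trend removed. SLC7A5, the large neutral amino acid transporter, averaged 1055 ± 11.8 FPKM with CBD and 894 ± 40.7 FPKM with vehicle (limma adjusted p 0.0668). Its difference of 0.24 was 0.07 with the GC trend removed. CEBPB, a partner of ATF4 at such elements, averaged 124 ± 1.47 FPKM with CBD and 88.8 ± 16.6 FPKM with vehicle (limma adjusted p 0.0715), a difference of 0.50 that became 0.21. The kinases that phosphorylate eIF2α were all 4 negative, with a median of -0.14. With the GC trend removed their median was -0.06, and none passed the unadjusted threshold. EIF2AK2, the interferon-inducible kinase PKR, averaged 34.9 ± 1.44 FPKM with CBD and 41.4 ± 2.80 FPKM with vehicle (limma adjusted p 0.0778). No gene of the scaffold, tRNA, elongation, ATF4 or kinase lists passed limma's adjusted threshold on FPKM. With limma-voom on recovered fragments, 1 scaffold gene, 2 genes of tRNA export and maturation, 1 mitochondrial elongation factor (GFM1) and 1 kinase (EIF2AK2) were called lower, against 6.68% of tested genes. The same fit called 2 cytosolic elongation factors and 5 genes of the ATF4 list higher, against 7.26% of tested genes. It called 2 genes of the ATF4 list lower, near the share of 6.68% over all tested genes.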

How the data were processed

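Total RNA of 3 CBD and 3 vehicle libraries was read by paired-end sequencing, as the labels' protocols state. The authors deposited 1 table of FPKM, whose columns, per the file headers, are single libraries. HISAT2 2.0.5 and featureCounts 1.5.0-p3 were used upstream, per the submitters' processing notes. The genome build, annotation and strand setting are not given in the sources used here. Such values carry no correction for GC-dependent yield, and a change in abundant genes shifts all others.

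All 58735 identifiers matched GENCODE 29 (GRCh38), whose exon lengths turned FPKM into whole fragments for 100% of values (tolerance 0.01). A floor of 3 fragments corresponds to 0.126 to 0.153 FPKM at 1 kb, which covers counting error only. Differences were fitted on log2(FPKM + 1) for the 12517 genes whose mean over all libraries reached 1 FPKM, using limma 3.58.1 in R 4.3.3 with an intensity trend, two-sided, and Benjamini-Hochberg adjustment over all of them at 0.05. The GC trend was a loess (span 0.3) on transcript GC content, fitted per library to the deviations of its log2 values from each gene's mean over all libraries. Single values had exact two-sided permutation tests over 20 splits. Replicates carried the same numbers in both groups, and the correlations of same-numbered deviations (-0.0027, 0.05 and 0.02) gave no pairing.

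The members and lists were chosen with earlier results of these data known. A gene of the marker lists is not named here. Every member is named, with all libraries shown for the 6 of smallest p in each compartment, WARS1 and the extremes of level, and up to 3 genes of smallest p from each other list. Promoter sequences are from RefSeq (GRCh38.p14). The alternatives covered pseudocount, filter, scaling, variance prior, GC, replicate block, limma-voom and each library left out.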

Additional observations from a re-analysis of the deposited data

How the results depend on the processing

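Over 19 alternative settings, 1 of them (GC trend removed without vehicle replicate 1) chosen after seeing the data, the 34 tested synthetases gave 643 differences, of which 578 kept their direction and side of the adjusted threshold, 36 newly passed it, 29 reversed and none lost a call. The cytosolic count of 11 lower genes at an unadjusted p was 10 to 12 under all 19, and both medians stayed negative throughout. Over all 12517 tested genes the count lower at an unadjusted p was 2004 as deposited and 2284 with limma-voom. It was 1242 with the GC trend removed, and 1194 with it removed without vehicle replicate 1. The counts over all genes under the other settings are not given here.

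Genes called higher and lower with CBD, 32 and 12 as reported, numbered 427 and 305 with a mean FPKM of at least 5, 728 and 587 with protein-coding genes only, 909 and 836 with limma-voom, 56 and 17 with median-ratio scaling, 54 and 19 with quantile normalization, 2 and 2 with the same FPKM sum, 4 and 4 with the GC trend removed, 0 and 1 without the intensity trend, and 0 and 0 with no filter, with the replicate block, with the GC trend removed under the replicate block, and with it removed without vehicle replicate 1. Leaving out single libraries gave 0 to 1267 higher and 0 to 1084 lower. Cytosolic genes past the adjusted threshold, 0 as reported, numbered 6 at a mean FPKM of at least 5, 9 with limma-voom, 7 with protein-coding genes only, and 0 to 11 without single libraries. Mitochondrial ones numbered 1 at a mean FPKM of at least 5, 1 with protein-coding genes only, and 0 to 1 without single libraries. How many genes were tested at a mean FPKM of at least 5, or as protein-coding genes only, is not given here. The member counts under those settings therefore have no share beside them. The mitochondrial count higher at an unadjusted p, 1 as reported, was 0 at a mean FPKM of at least 5, with the replicate block, and in all 3 fits with the GC trend removed, and 0 to 2 without single libraries. The lower count, 4 as reported, was 3 at a mean FPKM of at least 5, 1 with the GC trend removed, 2 with the GC trend removed under the replicate block, 2 with it removed without vehicle replicate 1, and 1 to 4 in the as-deposited values without single libraries. The replicate numbers do not pair the libraries, and not every library correlated best with its own number.

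With the GC trend removed, with and without the replicate block, FARSA reversed to -0.14, AARS2 to -0.035, CARS2 to -0.055, NARS2 to 0.067 and PARS2 to -0.0077. Without vehicle replicate 1 in addition they were -0.13, -0.049, -0.035, 0.14 and -0.047, QARS1 was -0.0026 and HARS2 -0.015. HARS2 was -0.0069 with the same FPKM sum. Single libraries left out gave HARS1 -0.074 to 0.017, CARS2 -0.0039 to 0.072, HARS2 -0.030 to 0.055, LARS2 -0.067 to 0.030, NARS2 -0.13 to 0.058, PARS2 -0.020 to 0.13, TARS2 -0.042 to 0.0085 and YARS2 -0.084 to 0.0013. The cause of these changes was not tested. The 25 to 42 fragments of SARS2 limit any statement on its level.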
